A study of Mus musculus with 13 samples.

Results

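The Mastermind and Notch pathway genes described here are 10 of the 48709 genes counted in 13 RNA-seq libraries of mouse spinal motoneurons. They are the 3 Mastermind-like coactivators Maml1, Maml2 and Maml3, the DNA-binding factor Rbpj, the receptors Notch1 and Notch2, the ligands Jag1 and Dll1, and the target genes Hes1 and Hes5. Each of the 10 symbols matched 1 Ensembl identifier through GENCODE names. Maml1 was put on the list because its level was higher in both injected groups than in non-injected mice, so its values in those comparisons are a description and carry no test. The other 9 genes are its partners in the pathway, and the list was drawn up with earlier results of these data known.

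The study asked what happens in motoneurons of mutant SOD1 mice when neighbouring astrocytes make an artificial microRNA directed at human SOD1. All mice carried the SOD1-G93A transgene, a model of amyotrophic lateral sclerosis, and no mice without it were compared. The AAV-miR SOD1 group (n = 4) received an adeno-associated virus with the microRNA into the cerebral ventricles at postnatal day 2, and the AAV-miR ctrl group (n = 5) received the control vector. Littermates with the transgene and no injection formed the non-injected group (n = 4). The microRNA acts in astrocytes, per the series' design, whereas the RNA came from the neurons next to them. At 65 days of age, 500 motoneurons per mouse were cut from stained lumbar cord sections by laser and pooled, so each library is 1 mouse and p-values measure the spread between mice. The cord was frozen inside its vertebrae.

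Notch signalling passes between touching cells. A ligand of the Jagged or Delta-like family on 1 cell binds a Notch receptor on its neighbour, the receptor is cut within the membrane, and its freed intracellular domain enters the nucleus. There it joins RBPJ, which otherwise holds target genes silent with corepressors, and a Mastermind-like protein that brings in acetyltransferases, so that genes of the Hes and Hey families are transcribed. In the nervous system the pathway is best known for holding progenitors back from becoming neurons and for its part in glial fate, and in adult cord its genes are active in glia and blood vessels as well as in neurons. Mastermind-like proteins also serve other transcription factors.

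Counts assigned to genes ranged from 13.9 to 37.4 megacounts per library. A level of 1 CPM (the count scaled by library size) therefore rests on few reads, and Hes5 and Dll1 lie near that level. The column header inside 2 files names a group other than the label: the library labelled non-injected replicate 3 has a header of the control vector, and the library labelled AAV-miR ctrl replicate 3 has a header of the non-injected group. Labels were followed, and for many results the values with these 2 libraries exchanged or left out are given as well. All 6 motoneuron markers (Chat, Slc5a7, Slc18a3, Isl1, Mnx1 and Prph) were detected in every library, and so was every marker of glia, vessels and blood cells on the lists used. The summed motoneuron level was 523 to 1025 CPM in AAV-miR SOD1, 732 to 2262 CPM in AAV-miR ctrl and 905 to 2319 CPM in non-injected libraries. The summed level of 4 erythroid markers was 14770 to 32660 CPM, 2466 to 20090 CPM and 3877 to 14310 CPM in the same order. In such pooled material, fewer cells of a type and less RNA per cell cannot be told apart.

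Upstream sequences of the members were searched for the RBPJ recognition letters GTGGGAA on both strands, because RBPJ binding is how the pathway reaches its targets. RefSeq sequence (build GRCm38.p6) gave 12 windows of 250 bases before a transcription start for 9 of the members, and Hes1 was not searched. Of these, 1 of the 12 windows, that of Hes5, held the letters, against 5.42% of all 32851 windows in the table. Hes5 is a basic helix-loop-helix repressor and a classical target, and its window is shown with the letters in capitals. It lies at chr4:154960673-154960922 on the plus strand, and the matches start 226 and 83 bases before the transcription start.
Hes5: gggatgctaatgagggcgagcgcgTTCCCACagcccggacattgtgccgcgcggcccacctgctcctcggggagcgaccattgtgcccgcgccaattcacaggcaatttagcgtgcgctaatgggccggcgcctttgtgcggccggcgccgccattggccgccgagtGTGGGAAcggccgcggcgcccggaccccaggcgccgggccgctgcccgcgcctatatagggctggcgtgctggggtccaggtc
The first match is on the opposite strand and is therefore printed as its reverse complement, TTCCCAC, and the other is on the strand shown. For comparison, the window of Maml1 at chr11:50292337-50292586, printed 5′ to 3′ on the minus strand, is shown because this gene set the list. It has no match and hence no capitals.
Maml1: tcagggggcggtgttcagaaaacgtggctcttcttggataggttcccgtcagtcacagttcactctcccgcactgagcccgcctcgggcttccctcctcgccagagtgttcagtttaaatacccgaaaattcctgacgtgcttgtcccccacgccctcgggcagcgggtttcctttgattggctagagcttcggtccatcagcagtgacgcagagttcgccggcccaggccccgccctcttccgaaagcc
A match is a description of letters and not a measured binding site.

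On a per-length scale, which is the one on which genes can be set beside each other, Hes1 was the highest of the 10. Its mean was 8.96 ± 2.42 RPKM (CPM divided by exon length; SD, n = 13), and it lay above Notch2 in 13 of 13 libraries, with no overlap of their ranges. Notch2 followed at 2.35 ± 1.26 RPKM and lay above Rbpj in 13 of 13 libraries. The remaining members lay close together, from Rbpj at 1.07 ± 0.256 RPKM to Maml3 at 0.476 ± 0.224 RPKM, and each gap between neighbours was smaller than the larger of their SDs. Maml1 followed Rbpj at 1.03 ± 0.613 RPKM, with the widest spread relative to its mean of the 3 Mastermind genes. Exon bases shared with another gene cover 31.8% of Hes5, 20.6% of Dll1 and 9.76% of Notch1, all with genes on the opposite strand, and the library kit does not mark strand. The counts of these 3 genes are therefore less certain than those of Jag1, Rbpj, Hes1 and Maml3, which share none.

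**Figure D1:**
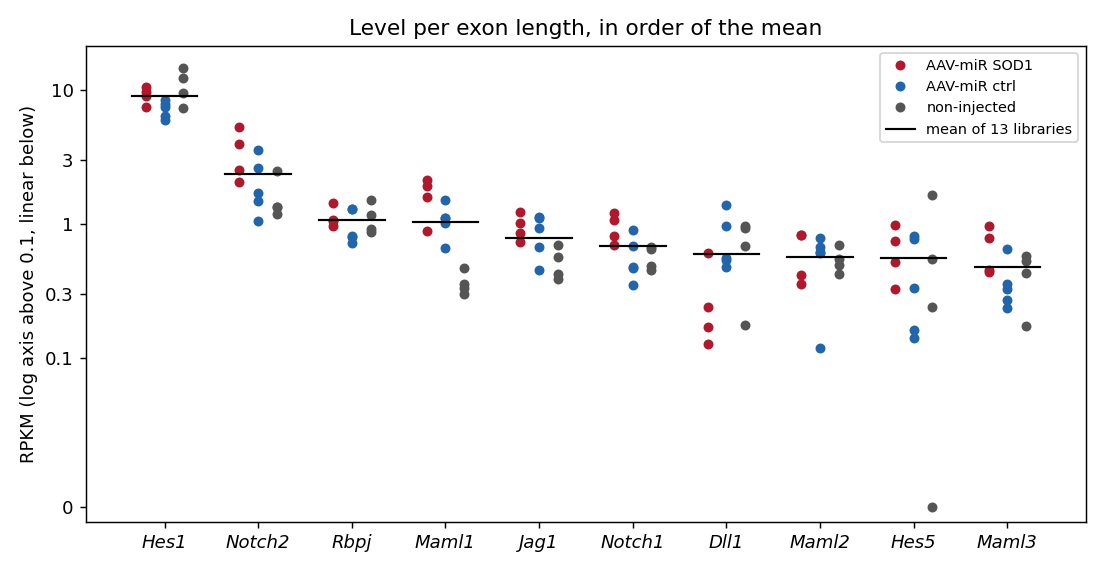
RPKM of each of the 10 genes in the 13 libraries, ordered by the mean (line), with 1 point per library coloured by group; the vertical axis is logarithmic above 0.1 and linear below. Hes1 stands above Notch2, the mean of Notch2 lies above those of the other 8 genes, and the non-injected points of Maml1 lie under its other points.

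Maml1 (ENSMUSG00000050567, chromosome 11, 50255634 to 50292311, minus strand, GRCm38) encodes the founding mammalian Mastermind-like coactivator. Its level was 11.7, 10.7, 4.93 and 8.85 CPM in AAV-miR SOD1 replicates 1, 2, 3 and 4. In AAV-miR ctrl replicates 1, 3, 4, 5 and 6 it was 8.35, 6.07, 6.15, 5.57 and 3.66 CPM, and in non-injected replicates 2, 3, 5 and 6 it was 1.85, 1.65, 2.57 and 1.97 CPM. The lowest injected library, AAV-miR ctrl replicate 6, lay above the highest non-injected one. The 2 injected groups overlapped, through AAV-miR SOD1 replicate 3. In reads, the gene had 104 to 263 counts in AAV-miR SOD1 and 29 to 103 in the non-injected libraries.

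As a description, the log2 difference of Maml1 from non-injected mice was 2.16 ± 0.35 (SE) for AAV-miR SOD1 and 1.56 ± 0.33 for AAV-miR ctrl. These 2 values share the non-injected libraries. With the 2 libraries of conflicting headers exchanged they were 1.54 and 0.71, since the library labelled AAV-miR ctrl replicate 3, at 6.07 CPM, would then count as non-injected. Without both libraries they were 2.16 and 1.501. Replicate numbers 5 and 6 occur in the control groups alone, and the labels do not say what the numbers stand for. Among the libraries numbered 1 to 4 the differences were 2.39 and 1.98. The comparison that did not choose the gene is AAV-miR SOD1 against AAV-miR ctrl. There 3 of 4 AAV-miR SOD1 libraries lay above all 5 of AAV-miR ctrl, and the log2 difference was 0.60 ± 0.31, with an edgeR p of 0.0735 and an adjusted p of 0.387. The groups were not told apart, and the adjusted p ranged from 0.181 to 0.894 over the alternatives.

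The libraries also differed in blood cell markers. Erythroid sums were 32660, 30880, 14770 and 21630 CPM in AAV-miR SOD1 replicates 1 to 4, in the same order of size as Maml1. In AAV-miR ctrl they were 20090, 11780, 8651, 2466 and 5858 CPM, and the highest library was also the highest in Maml1, while the lowest, replicate 5, had Maml1 at 5.57 CPM. In non-injected libraries they were 14310, 3877, 5453 and 4240 CPM, and the highest had Maml1 at 1.85 CPM, below replicates 5 and 6. The part that blood cells may have in the Maml1 level was not tested. The antisense gene Gm26542 shares 2.44% of the Maml1 exon bases and had 0 to 20 counts per library.

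The 5 genes whose log2 CPM followed Maml1 most closely over the 13 libraries, among 17402 others, were Nlrc4 (Pearson r 0.91), F730016J06Rik (0.91), Phf8 (0.90), Cep128 (0.90) and Dnase1l3 (0.89). Nlrc4 is an inflammasome sensor best known from myeloid cells, Phf8 a histone demethylase, Cep128 a centrosomal protein and Dnase1l3 a nuclease secreted by myeloid cells. Their Spearman coefficients ran from 0.84 for Phf8 to 0.93 for Nlrc4. With group means removed, r was between 0.64 for Phf8 and 0.91 for Cep128. Nlrc4 had 1, 1, 26 and 7 reads in non-injected replicates 2, 3, 5 and 6, and F730016J06Rik had 12, 4, 28 and 40. The coefficients of both genes therefore rest in part on few reads. All coefficients here share library, depth and group, were ranked for height, and are given without a test. Of the members, Jag1 ranked 132 with r 0.79 and Notch2 ranked 440 with r 0.73, while Maml3 ranked 2746 with r 0.51 and Maml2 ranked 6529. With group means removed, r was 0.74 for Maml3, 0.71 for Notch2, 0.57 for Hes1, 0.54 for Jag1 and 0.42 for Rbpj. It was 0.39 for Maml2, 0.38 for Notch1, 0.02 for Hes5 and -0.47 for Dll1. With group means kept, r was -0.19 for Hes1 and -0.46 for Dll1. Coefficients with group means kept include the gap between injected and non-injected mice for which Maml1 was chosen.

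**Figure D2:**
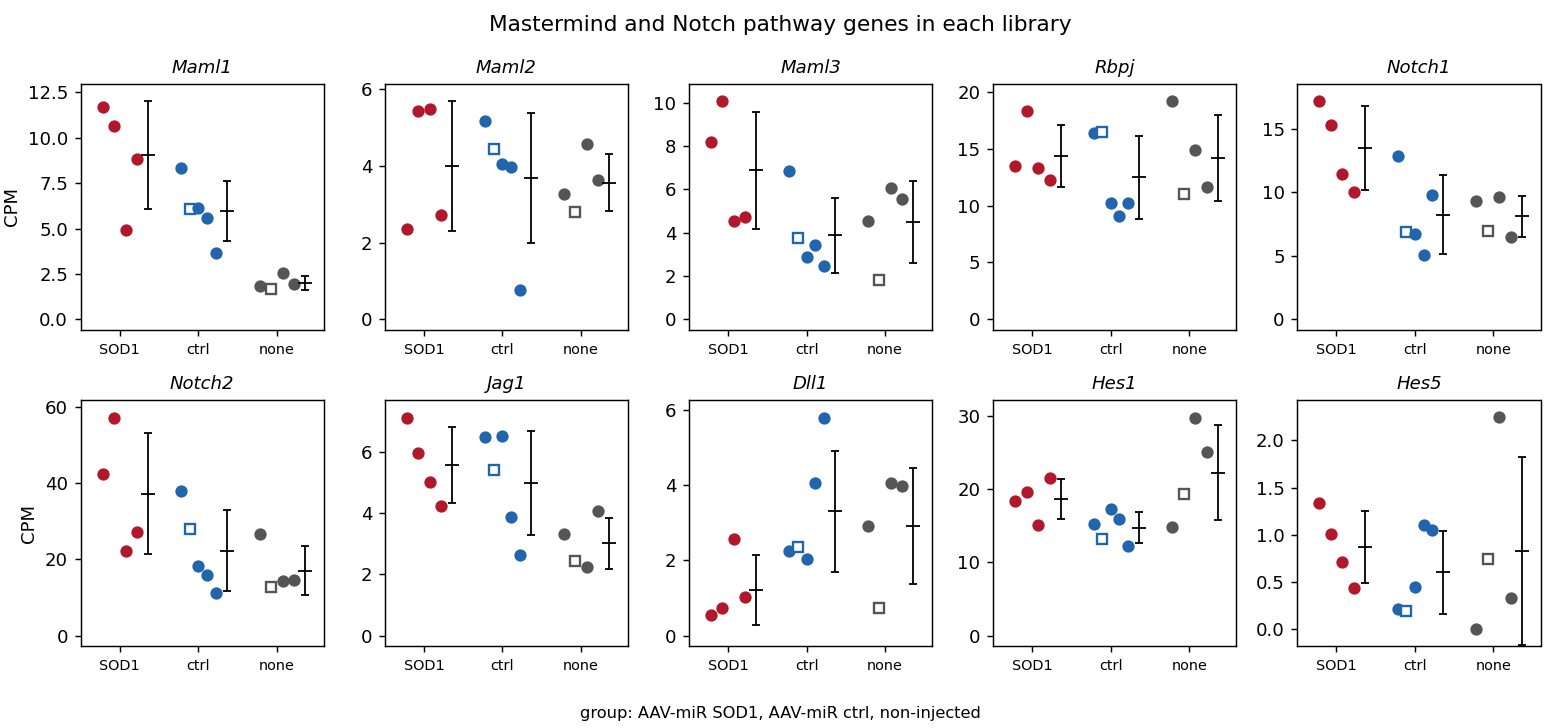
CPM of each of the 10 genes in every library (points) of the AAV-miR SOD1 (SOD1), AAV-miR ctrl (ctrl) and non-injected (none) groups, with the group mean ± SD in black and the 2 libraries of conflicting headers as open squares. The non-injected points of Maml1 lie under its other points, the gap for which it was chosen. For Notch1 and Jag1 the AAV-miR SOD1 points lie above the non-injected ones by a small margin.

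Maml2 and Maml3 are the other Mastermind-like coactivators, and both overlapped between injected and non-injected mice. Maml2 was at 2.36, 5.42, 5.497 and 2.72 CPM in AAV-miR SOD1, and at 5.17, 4.43, 4.05, 3.97 and 0.779 CPM in AAV-miR ctrl. Non-injected libraries had 3.28, 2.79, 4.57 and 3.64 CPM. The groups overlapped, and the widest departure was AAV-miR ctrl replicate 6, below every other library. The log2 difference from non-injected mice was 0.16 ± 0.49 for AAV-miR SOD1 (edgeR p 0.743) and 0.04 ± 0.46 for AAV-miR ctrl (edgeR p 0.934).

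Maml3 was at 8.19, 10.1, 4.55 and 4.74 CPM in AAV-miR SOD1. It was at 6.85, 3.76, 2.85, 3.44 and 2.47 CPM in AAV-miR ctrl and at 4.52, 1.82, 6.07 and 5.55 CPM in non-injected libraries. Replicates 1 and 2 of AAV-miR SOD1 were the highest of all 13, and the other 2 lay inside both control groups. The log2 difference was 0.83 ± 0.41 against AAV-miR ctrl (edgeR p 0.0631, adjusted p 0.372) and 0.61 ± 0.44 against non-injected (edgeR p 0.181, adjusted p 0.446). Against non-injected mice the AAV-miR ctrl group differed by -0.22 ± 0.41 (edgeR p 0.607), and by 0.52 among the libraries numbered 1 to 4.

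Rbpj, the factor that binds the DNA of Notch targets, had the smallest spread relative to its mean of the 10. Its level was 13.5, 18.4, 13.4 and 12.3 CPM in AAV-miR SOD1 and 16.4, 16.5, 10.3, 9.12 and 10.2 CPM in AAV-miR ctrl. It was 19.2, 11.1, 14.9 and 11.6 CPM in non-injected libraries. All 3 groups overlapped widely. The log2 difference between AAV-miR SOD1 and non-injected mice was 0.02 ± 0.27, smaller than its error.

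Across AAV-miR SOD1 and AAV-miR ctrl, 0 of the 10 members passed an edgeR adjusted p of 0.05, as did 0% of all genes tested. At an unadjusted p under 0.05, 2 of 10 members were counted, against 14.5% of the 17403 genes. They were Notch1, with a positive difference, and Dll1, with a negative one. DESeq2 and limma-voom also passed 0 members after adjustment, and at unadjusted p they counted 4 and 5. Over all 17403 genes they counted 2904 and 3814 at unadjusted p, against 2529 by edgeR. After adjustment DESeq2 passed 173 of all genes and limma-voom 0. The median log2 difference of the 10 members was 0.43, beside -0.04 for all genes. The count of 2 was 0 without AAV-miR SOD1 replicate 1 or replicate 2, and 5 without AAV-miR SOD1 replicate 3 or AAV-miR ctrl replicate 1. Leaving out AAV-miR ctrl replicate 4, 5 or 6 gave 1. Among the libraries numbered 1 to 4 alone it was 0, and with the conflicting headers exchanged it was 4. The count over all genes moved too. Without AAV-miR SOD1 replicate 1, 2 or 3 it was 1192 of 17857, 2029 of 17772 or 2640 of 17824. Without AAV-miR ctrl replicate 1, 4, 5 or 6 it was 3986 of 17217, 2062 of 17275, 1604 of 17241 or 1591 of 17239. Among the libraries numbered 1 to 4 it was 891 of 18274, and with the headers exchanged 3456 of 17403.

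Across AAV-miR SOD1 and non-injected mice, 0 of the 9 members other than Maml1 passed an edgeR adjusted p of 0.05, as did 0% of all genes. At an unadjusted p under 0.05, 3 of 9 were counted, against 20.9% of all genes, and all 3 had positive differences: Notch1, Notch2 and Jag1. DESeq2 passed 0 of 9 after adjustment and limma-voom 0, and each counted 4 at unadjusted p. Over all 17403 genes they counted 4003 and 4237 at unadjusted p, and passed 996 and 0 after adjustment. The median log2 difference of the 9 was 0.16, beside -0.09 for all genes. The count was 1 without AAV-miR SOD1 replicate 1 or replicate 2, and 1 among the libraries numbered 1 to 4. With the headers exchanged it was 2, Notch1 (edgeR p 0.0297) and, with a negative difference, Dll1 (edgeR p 0.0311). Without those libraries it was also 2, Notch2 (edgeR p 0.0374) and again Dll1 (edgeR p 0.0196). Over all genes the count was 2431 of 17857 without AAV-miR SOD1 replicate 1 and 2978 of 17772 without replicate 2. Among the libraries numbered 1 to 4 it was 2863 of 18274. With the headers exchanged 2567 of 17403 genes were counted, and without those libraries 2258 of 17771.

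Across AAV-miR ctrl and non-injected mice, 0 of 9 passed the adjusted threshold by edgeR, DESeq2 or limma-voom, beside 0% of all genes by edgeR. At an unadjusted p under 0.05, only Hes1 was counted, 1 of 9 against 3.61% of all genes, and its difference was negative. The count was 0 without non-injected replicate 5 and 2 without AAV-miR ctrl replicate 5, AAV-miR ctrl replicate 6 or non-injected replicate 6. By DESeq2 it was 2, and with the headers exchanged 0. Over all 17403 genes the count was 756 by DESeq2 and 780 with the headers exchanged. It was 626 of 17830 without non-injected replicate 5 and 523 of 17859 without non-injected replicate 6. Without AAV-miR ctrl replicate 5 or 6 it was 767 of 17241 or 630 of 17239. The median log2 difference of the 9 was 0.02, beside -0.01 for all genes.

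**Figure D3:**
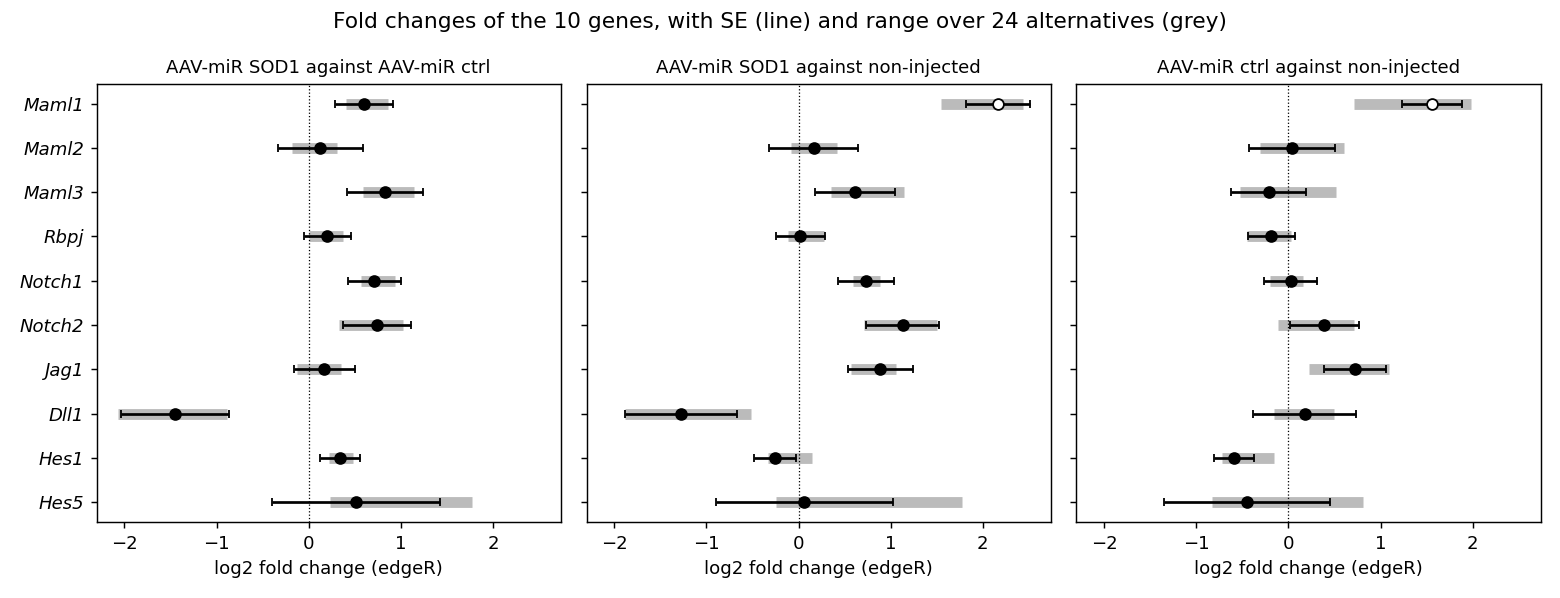
Log2 fold change (horizontal axis) of each of the 10 genes in the 3 comparisons, with the edgeR estimate as a point, its SE as a line and the range over 24 alternatives in grey; hollow points mark Maml1 where it was chosen on the comparison. Maml1 stands apart at 2.16 and 1.56 in the comparisons with non-injected mice, Dll1 lies lowest at -1.45 and -1.28, and the grey ranges of Maml2 and Rbpj cross 0 in each panel.

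Notch1 and Notch2 are receptors on the signal-receiving cell. Notch1 (ENSMUSG00000026923, chromosome 2, 26457903 to 26516663, minus strand) was at 17.2, 15.3, 11.5 and 9.99 CPM in AAV-miR SOD1. In AAV-miR ctrl it was at 12.9, 6.84, 6.67, 5.02 and 9.75 CPM, and in non-injected libraries at 9.32, 6.95, 9.64 and 6.50 CPM. Every AAV-miR SOD1 library lay above every non-injected one, the lowest at 9.99 CPM only just above the highest at 9.64. Such gaps are described throughout without the share of all genes that show one, so they do not mark these genes out from others. Against AAV-miR ctrl the groups overlapped through AAV-miR ctrl replicate 1. The log2 difference was 0.73 ± 0.31 against non-injected (edgeR p 0.0311, adjusted p 0.197) and 0.71 ± 0.29 against AAV-miR ctrl (edgeR p 0.0270, adjusted p 0.302). Neither passed the threshold, and the 2 control groups differed by 0.02 ± 0.29. Without the 2 libraries of conflicting headers the edgeR p was 0.0560 and 0.0493.

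Notch2 (ENSMUSG00000027878, chromosome 3, 98013527 to 98150361, plus strand) was at 42.5, 57.3, 22.3 and 27.1 CPM in AAV-miR SOD1. In AAV-miR ctrl it was at 38.1, 28.04, 18.4, 15.96 and 11.3 CPM, and in non-injected libraries at 26.6, 12.9, 14.3 and 14.5 CPM. In the AAV-miR SOD1 group 3 of 4 libraries lay above all 4 non-injected ones, of which replicate 2 stood apart. The log2 difference was 1.13 ± 0.40 against non-injected (edgeR p 0.0132, adjusted p 0.152) and 0.74 ± 0.37 against AAV-miR ctrl (edgeR p 0.0664, adjusted p 0.375). With the headers exchanged they were 0.84 and 0.95, with edgeR p of 0.0592 and 0.0270. Among the libraries numbered 1 to 4 they were 0.95 and 0.42, with edgeR p of 0.0824 and 0.341. Non-injected replicate 2 also had the highest erythroid and neutrophil sums of its group, 14310 and 21520 CPM, and the lowest motoneuron sum, 905 CPM. Its B lineage and microglial marker sums, 180 and 219 CPM, lay below those of non-injected replicate 5, 193 and 357 CPM. The part of cell makeup in the Notch2 level was not tested.

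The 2 other receptors come from the list of further pathway genes. Notch3, which marks pericytes and vascular smooth muscle, was between 2.71 and 11.3 CPM over the 13 libraries. Its log2 difference between AAV-miR SOD1 and non-injected mice was 0.00 ± 0.42. Notch4, an endothelial receptor, was between 1.083 and 5.84 CPM, and its log2 difference between AAV-miR SOD1 and AAV-miR ctrl was 1.02 ± 0.49 (edgeR p 0.0569). Against non-injected mice, Notch4 differed by 0.18 ± 0.51 in AAV-miR SOD1 and by -0.84 ± 0.49 in AAV-miR ctrl. The endothelial marker sum was 92.0 to 144 CPM in AAV-miR SOD1, 83.9 to 152 CPM in AAV-miR ctrl and 63.2 to 139 CPM in non-injected libraries, so the groups overlapped. The pericyte and smooth muscle sum overlapped too, at 163 to 371, 157 to 433 and 165 to 443 CPM.

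Jag1 and Dll1 are ligands on the signal-sending cell. Jag1 (ENSMUSG00000027276, chromosome 2, 137081456 to 137116644, minus strand) was at 7.12, 5.95, 5.02 and 4.24 CPM in AAV-miR SOD1. It was at 6.50, 5.40, 6.52, 3.89 and 2.64 CPM in AAV-miR ctrl and at 3.32, 2.45, 2.25 and 4.06 CPM in non-injected libraries. Every AAV-miR SOD1 library lay above every non-injected one, with 4.24 against 4.06 CPM at the edge, and 3 of 5 AAV-miR ctrl libraries did so too. The log2 difference from non-injected mice was 0.89 ± 0.35 for AAV-miR SOD1 (edgeR p 0.0245, adjusted p 0.182) and 0.72 ± 0.34 for AAV-miR ctrl (edgeR p 0.0504, adjusted p 1.00). Between the 2 injected groups it was 0.17 ± 0.33. With the headers exchanged the first difference was 0.58, with an edgeR p of 0.169, and without both libraries it was 0.87 with an edgeR p of 0.0536.

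Dll1 (ENSMUSG00000014773, chromosome 17, 15367354 to 15376872, minus strand) was the 1 member with a negative difference between the injected groups. It was at 0.534, 0.720, 2.56 and 1.01 CPM in AAV-miR SOD1, which rests on 12 to 54 reads. In AAV-miR ctrl it was at 2.25, 2.36, 2.03, 4.05 and 5.79 CPM, and in non-injected libraries at 2.91, 0.740, 4.05 and 3.97 CPM. In AAV-miR SOD1, 3 of 4 libraries lay below all of AAV-miR ctrl and replicate 3 lay inside. The log2 difference was -1.45 ± 0.59 against AAV-miR ctrl (edgeR p 0.0271, adjusted p 0.302) and -1.28 ± 0.61 against non-injected (edgeR p 0.0541, adjusted p 0.249). Without the 2 libraries of conflicting headers the first was -1.49, and with them exchanged -1.31. Among the libraries numbered 1 to 4 the differences were -0.88 and -0.60, with edgeR p of 0.202 and 0.427. Motoneuron marker sums were 606, 1025, 523 and 676 CPM in AAV-miR SOD1 and 732, 973.5, 1024, 2262 and 1895 CPM in AAV-miR ctrl. They were 905, 2319, 1881 and 1659 CPM in non-injected libraries. The 4 libraries highest in Dll1, replicates 5 and 6 of both control groups, were among the 5 highest in motoneuron sum, and the remaining one of those 5, non-injected replicate 3, had Dll1 at 0.740 CPM. The part of motoneuron share in the Dll1 level was not tested.

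Of the other ligands on the list, none had an unadjusted p under 0.05 in any comparison. Jag2 was between 1.87 and 8.08 CPM over the 13 libraries, Dll4, an endothelial ligand, between 1.57 and 9.71, and the atypical ligand Dlk1 between 0.175 and 7.01. Dll3 and Dlk2 stayed under the filter on low counts. The log2 difference between AAV-miR ctrl and non-injected mice was -1.38 ± 0.85 for Dlk1 and -0.54 ± 0.36 for Jag2 (edgeR p 0.130 and 0.152).

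Hes1 and Hes5 encode repressors that are transcribed when the receptor has been cut. Hes1 (ENSMUSG00000022528, chromosome 16, 30064384 to 30067796, plus strand) was at 18.4, 19.6, 15.1 and 21.6 CPM in AAV-miR SOD1. It was at 15.3, 13.1, 17.3, 15.9 and 12.2 CPM in AAV-miR ctrl and at 14.9, 19.3, 29.7 and 25.02 CPM in non-injected libraries. AAV-miR ctrl had the lowest mean, and non-injected replicates 5 and 6 were the highest libraries. The log2 difference of AAV-miR ctrl from non-injected mice was -0.59 ± 0.22 (edgeR p 0.0160, adjusted p 1.00), and that of AAV-miR SOD1 was -0.25 ± 0.23 (edgeR p 0.290). Among the libraries numbered 1 to 4 the first was -0.16, and with the headers exchanged it was -0.37, with edgeR p of 0.583 and 0.155.

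Hes5 (ENSMUSG00000048001, chromosome 4, 154960923 to 154962371, plus strand) was at 1.34, 1.01, 0.711 and 0.443 CPM in AAV-miR SOD1. It was at 0.221, 0.193, 0.450, 1.104 and 1.05 CPM in AAV-miR ctrl and at 0, 0.740, 2.25 and 0.328 CPM in non-injected libraries. The 0 in non-injected replicate 2 allows up to 3 counts, for counting error alone. That is 0.130 CPM by the library size before TMM scaling, a slightly different scale from the levels above. The gene rested on 0 to 90 reads per library, and its SEs of 0.90 to 0.96 on the log2 scale are the largest of the 10. Non-injected replicates 5 and 6, at 37.4 and 35.8 megacounts, had 90 and 11 of these reads. No difference of Hes5 between groups was larger than its SE.

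Of the 65 other Notch pathway genes on the list, 59 passed the filter on low counts. Across AAV-miR SOD1 and AAV-miR ctrl, 9 of 59 (15.3%, against 14.5% of all genes) had an unadjusted edgeR p under 0.05, 4 positive and 5 negative. Across AAV-miR SOD1 and non-injected mice it was 12 of 59 (20.3%, against 20.9%), 6 in each direction. Across AAV-miR ctrl and non-injected mice it was 6 of 59 (10.2%, against 3.61%), 1 positive and 5 negative. None passed the edgeR adjusted threshold. The first 2 shares lie near the background of their comparisons. The third rests on Neurl1b, Ctbp1, Neurl1a, Dtx1, Aes and Rfng. Of these 6, only Neurl1b had an edgeR p under 0.05 (0.0103) among the libraries numbered 1 to 4. With the headers exchanged, only Ctbp1 (edgeR p 0.0302) and Neurl1a (edgeR p 0.00857) did. The whole list was not counted again in those fits. The median log2 differences of the list were 0.10, 0.04 and 0.00.

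**Figure D4:**
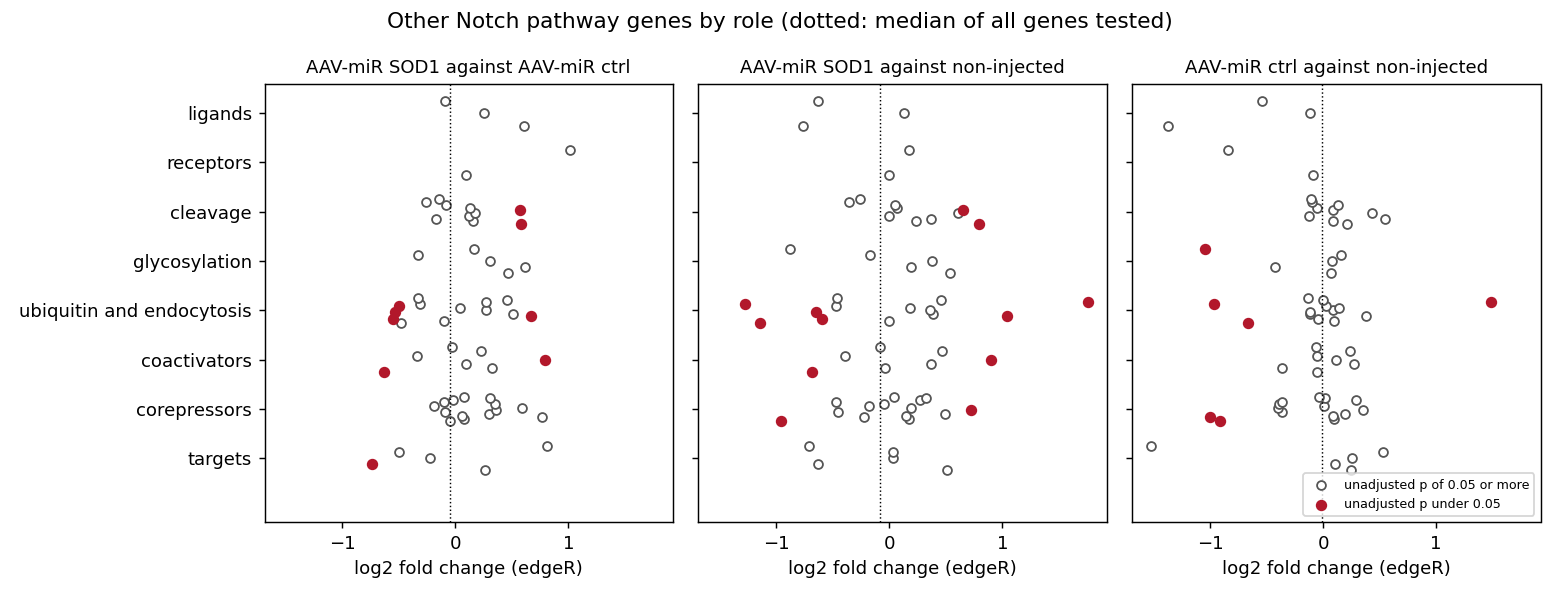
Log2 fold change (horizontal axis) of the 59 other pathway genes tested, by role (rows), in the 3 comparisons; filled red points have an unadjusted edgeR p under 0.05, open points do not, and the dotted line is the median of all genes tested. Filled points sit on both sides, the row of ubiquitin and endocytosis genes has 4, 6 and 3 of them in the 3 panels, and ligands and receptors have none.

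Among genes of receptor cleavage, Furin, which cuts the receptor on its way to the surface, had a positive difference in AAV-miR SOD1. Its level was 19.7, 23.6, 22.2 and 22.1 CPM there, above all AAV-miR ctrl libraries (10.8 to 17.3 CPM) and all non-injected ones (11.8 to 15.9 CPM). The log2 difference was 0.57 ± 0.19 (edgeR p 0.00801) and 0.66 ± 0.20 (edgeR p 0.00500), and the first was 0.45 among the libraries numbered 1 to 4 (edgeR p 0.0512). Adam10, the surface protease that follows ligand binding, was counted in both comparisons as well.

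The genes of ubiquitination and endocytosis split. Neurl1b, a ubiquitin ligase that acts on ligands, was at 3.47, 2.98, 2.46 and 1.83 CPM in AAV-miR SOD1 and at 1.37, 2.70, 2.40, 2.66 and 1.997 CPM in AAV-miR ctrl. In non-injected libraries it was at 0.5997, 0.626, 0.375 and 1.55 CPM. The log2 difference from non-injected mice was 1.76 ± 0.48 for AAV-miR SOD1 (edgeR p 0.00235) and 1.48 ± 0.46 for AAV-miR ctrl (edgeR p 0.00570). All AAV-miR SOD1 libraries lay above all non-injected ones, and 4 of 5 AAV-miR ctrl libraries did so. With the headers exchanged the differences were 1.05 and 0.48, with edgeR p of 0.102 and 0.412.

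Its relative Neurl1a had negative differences, -1.28 ± 0.39 (edgeR p 0.00555) and -0.96 ± 0.36 (edgeR p 0.0188) against non-injected mice. Its non-injected mean of 59.5 CPM included replicate 6 at 106.6 CPM. The differences of Neurl1a among the libraries numbered 1 to 4 were -0.51 and -0.28, with edgeR p of 0.221 and 0.517. Dtx1, a ubiquitin ligase of the Deltex family, had a mean of 12.5 CPM in AAV-miR SOD1 and 27.6 CPM in non-injected libraries, a log2 difference of -1.15 ± 0.30 (edgeR p 0.00171). With the headers exchanged the Dtx1 difference was -0.79, with an edgeR p of 0.0408. Another Deltex gene, Dtx3l, had positive differences of 1.04 ± 0.30 against non-injected (edgeR p 0.00388) and 0.67 ± 0.28 against AAV-miR ctrl (edgeR p 0.0327). Fbxw7, which marks the freed receptor domain for breakdown, differed by -0.53 ± 0.21 from AAV-miR ctrl (edgeR p 0.0216). Fbxw7 and Dtx3l differed from AAV-miR ctrl, in the libraries numbered 1 to 4, by -0.34 and 0.73, with edgeR p of 0.186 and 0.0717.

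Partners of the Mastermind complex also split. Ep300, the acetyltransferase that Mastermind brings in, differed by 0.79 ± 0.28 between AAV-miR SOD1 and AAV-miR ctrl (edgeR p 0.0146). Ccnc, the cyclin of the kinase that acts on the receptor domain in that complex, differed by -0.63 ± 0.20 (edgeR p 0.00697), with means of 35.4 and 54.8 CPM. Against non-injected mice the Ccnc difference was -0.69 ± 0.21 (edgeR p 0.00550), and -0.44 without the 2 libraries of conflicting headers (edgeR p 0.0557). Among the corepressors, Ctbp1 and Aes differed between AAV-miR ctrl and non-injected mice by -0.998 ± 0.37 and -0.91 ± 0.38 (edgeR p 0.0169 and 0.0318). The glycosyltransferase Rfng differed by -1.05 ± 0.46 (edgeR p 0.0386). Non-injected replicates 5 and 6 were above all AAV-miR ctrl libraries for these 3 genes. With the headers exchanged the differences were -0.92 for Ctbp1, -0.68 for Aes and -0.76 for Rfng, with edgeR p of 0.0302, 0.122 and 0.151. In the libraries numbered 1 to 4 the differences were -0.068 for Ctbp1, -0.28 for Aes and -0.76 for Rfng, with edgeR p of 0.880, 0.462 and 0.182. In the same libraries Ep300 and Ccnc differed between the injected groups by 0.51 and -0.45, with edgeR p of 0.144 and 0.0647.

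Of the other target genes, Hey1 was lower in mean in AAV-miR SOD1 (19.7 CPM) than in AAV-miR ctrl (32.9 CPM), a log2 difference of -0.74 ± 0.30 (edgeR p 0.0283). It ranged from 14.2 to 46.2 CPM over the libraries, and only 1 AAV-miR SOD1 library lay below all of AAV-miR ctrl. For the libraries numbered 1 to 4 the difference was -0.36, with an edgeR p of 0.306. Hes6 was between 7.80 and 39.8 CPM, Heyl between 3.53 and 19.1, Hey2 between 0.477 and 2.18 and Nrarp between 0 and 1.88. Hes2, Hes3 and Hes7 had at most 6 reads in a library and were not tested.

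The smallest edgeR adjusted p among these pathway genes was 0.140, in AAV-miR SOD1 against non-injected mice. By DESeq2 the adjusted p there was under 0.05 for 5 of the 6 named, with 0.0220 for Dtx1, 0.0270 for Dtx3l, 0.0193 for Furin, 0.0437 for Neurl1a and 0.0137 for Neurl1b. DESeq2 passed 996 of the 17403 genes in that comparison, against 0 by edgeR and 0 by limma-voom. The 6 genes were named for the smallest edgeR p in the same comparison, so their DESeq2 values are no separate support.

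Marker lists of other cells differed between the groups as well. In AAV-miR SOD1, 4 of 4 erythroid markers had positive differences at unadjusted edgeR p under 0.05 against each control group. Against non-injected mice, 4 of 5 neutrophil granule and 3 of 5 B lineage markers did so, and 6 of 6 motoneuron markers had negative differences. Summed neutrophil granule levels were 27120 to 73070 CPM in AAV-miR SOD1, 8709 to 61530 CPM in AAV-miR ctrl and 12070 to 21520 CPM in non-injected libraries. B lineage sums were 186 to 431, 127 to 301 and 45.5 to 193 CPM. Microglial sums were 275 to 364, 148 to 504 and 78.7 to 357 CPM, and astrocyte sums 459 to 575, 568 to 1011 and 540 to 782 CPM. Notch1, Notch2, Jag1, Furin and Dtx3l were higher, and Dll1, Dtx1, Neurl1a and Ccnc lower, in mean level in the group where blood markers were high and motoneuron markers low. Against AAV-miR ctrl, Jag1 (0.17 ± 0.33) and Neurl1a (-0.31 ± 0.37) differed by less than their SE. Rbpj and Maml2 did so in each comparison, and the mean of Hes1 in AAV-miR SOD1 lay between those of the control groups. The part of cell makeup in these differences was not tested.

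**Figure D5:**
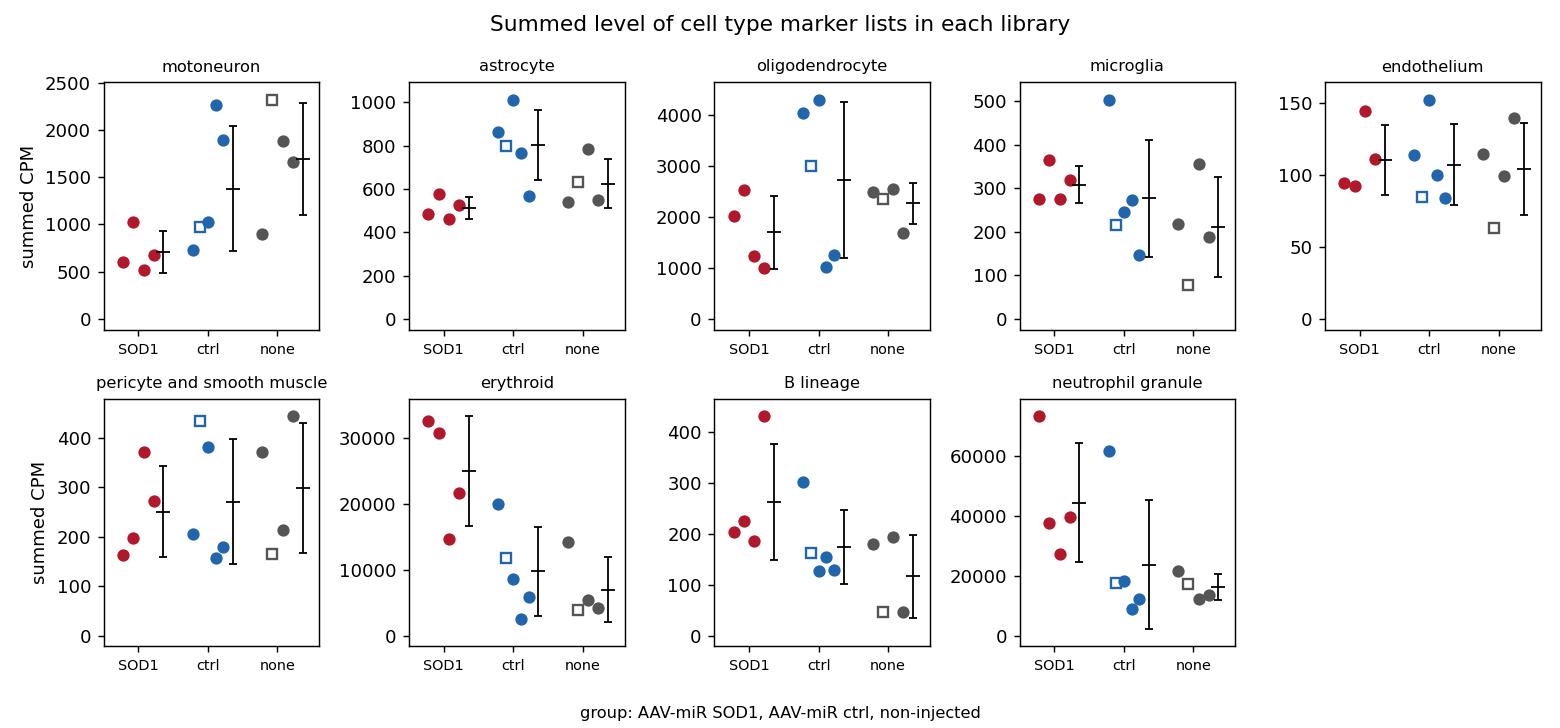
Summed CPM of 9 cell type marker lists in every library (points), with the group mean ± SD in black and the 2 libraries of conflicting headers as open squares; groups are AAV-miR SOD1 (SOD1), AAV-miR ctrl (ctrl) and non-injected (none). The mean erythroid sum is highest and the mean motoneuron sum lowest in AAV-miR SOD1, and every list has libraries that overlap between AAV-miR SOD1 and AAV-miR ctrl.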

How the data were processed

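Expression was measured in laser-captured lumbar motoneurons of 13 mice. Raw read counts per Ensembl gene were deposited by the authors, 1 table per library. The submitters' processing notes name cutadapt 1.8, STAR 2.5.2b, HTSeq 0.6.1 and build GRCm38, without settings. The annotation release and strand setting are not given in the sources used here. The 5 summary rows, which hold 47.0% to 61.6% of each table's reads, were left out of library sizes. Reads aligned to several places make up 42.3% to 56.8%, so near-identical genes are counted low.

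Names, exon lengths and positions came from GENCODE M21, in which 48349 of 48709 identifiers were found. In R 4.3.3, edgeR 4.0.16 filtered genes (filterByExpr, minimum count 10), scaled by TMM and fitted all 13 libraries with a quasi-likelihood F test. P-values were adjusted by Benjamini-Hochberg over 17403 genes, with a threshold of 0.05. All 10 members passed the filter. CPM and RPKM use TMM-scaled library sizes, and log2 CPM a prior count of 2. The fit was tested on simulated data with 200 changed genes, whose changes were set larger than any difference tested among the members. That test does not show how well differences of the members' size would be found. Alternatives were other scalings and filters, DESeq2 1.42.0, limma-voom (limma 3.58.1), fits on each pair of groups by itself, a replicate block, the libraries numbered 1 to 4, exchange or omission of the 2 libraries of conflicting headers, and each library left out in turn.

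The members, pathway genes and marker lists were chosen with earlier results of these data known. Named besides the 10 members were up to 6 pathway genes per comparison with the smallest p under 0.05, each tested ligand and receptor, and the 5 genes with the highest Pearson r with Maml1. Adam10 and the targets Hes2, Hes3, Hes6, Hes7, Hey2, Heyl and Nrarp lie outside that rule and were named after their values were seen. No 2 libraries agreed within counting noise, since the smallest chi-square per degree of freedom over 78 pairs was 35.8.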

Additional observations from a re-analysis of the deposited data

Results flagged for a closer look

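In 2 of the 30 sets of levels examined (10 genes in 3 groups), 1 library lay apart from the rest of its group by Dixon's criterion. Chance gives about 1 in 20, or 1.5 of 30. Maml2 in AAV-miR ctrl replicate 6 had a log2 CPM of -0.22 (0.779 CPM), against 2.02 in the nearest library of its group, a gap of 0.857 of the whole range. Notch2 in non-injected replicate 2 had a log2 CPM of 4.74 (26.6 CPM), against 3.87 in the nearest library, a gap of 0.837 of the range.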

How the results depend on the processing

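The number of members past the adjusted threshold was 0 in each comparison under all 24 alternatives. The number with an unadjusted p under 0.05 was not stable. In AAV-miR SOD1 against AAV-miR ctrl (2 as reported) it was 4 by DESeq2, 5 by limma-voom, 0 among the libraries numbered 1 to 4 and 4 with the headers exchanged. In AAV-miR SOD1 against non-injected (3) it was 1 among the libraries numbered 1 to 4. In AAV-miR ctrl against non-injected (1) it was 2 by RLE scaling, 2 by upper quartile scaling, 2 by DESeq2 and 0 with the headers exchanged. Leaving out 1 library gave 0 to 5, 1 to 4 and 0 to 2, respectively. The counts over all genes moved as well. In AAV-miR SOD1 against AAV-miR ctrl they were 2904 by DESeq2, 3814 by limma-voom and 3456 with headers exchanged, of 17403. Among the libraries numbered 1 to 4 it was 891 of 18274. Leaving out 1 library gave 1192 to 3986 genes in that comparison. It gave 2431 to 4146 in AAV-miR SOD1 against non-injected, and 516 to 1008 in AAV-miR ctrl against non-injected. The cause of these shifts was not tested.

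The titles' replicate numbers are not stated to mark a shared litter or day. Same-numbered libraries did not deviate together: correlations ran from -0.19 to 0.24 in 8 pairs, 3 of them over 0.1. With the replicate block, the unadjusted counts were 0 in AAV-miR SOD1 against AAV-miR ctrl and 0 in AAV-miR SOD1 against non-injected. Over all 17403 genes they were 1535 and 1441. The block turned the log2 difference of Rbpj to -0.0005 and -0.10 in those comparisons, of Maml2 to -0.083 against non-injected for AAV-miR SOD1 and -0.11 for AAV-miR ctrl, of Notch1 to -0.054 and of Hes5 to 0.0051 in AAV-miR ctrl against non-injected.

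Other reversals concerned differences smaller than their SE, apart from Notch2, Hes1 and Dtx1. In AAV-miR SOD1 against AAV-miR ctrl, the libraries numbered 1 to 4 gave -0.18 for Maml2 and -0.12 for Jag1. In AAV-miR SOD1 against non-injected they gave -0.052 for Rbpj and 0.15 for Hes1, and limma-voom gave -0.044 for Maml2. Rbpj was -0.11 with the headers exchanged and -0.015 without those libraries. In AAV-miR ctrl against non-injected, limma-voom gave -0.31 for Maml2, -0.091 for Notch1 and 0.15 for Hes5, and the libraries numbered 1 to 4 gave 0.52 for Maml3. The header exchange gave -0.25 for Maml2, -0.11 for Notch2, -0.15 for Dll1, 0.026 for Hes5 and 0.050 for Dtx1, and omission of those libraries -0.11 for Maml2 and -0.023 for Dll1.

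Leaving out 1 library reversed some small differences too. The range was -0.12 to 0.31 for Maml2 in AAV-miR SOD1 against AAV-miR ctrl. Against non-injected, AAV-miR SOD1 gave -0.0084 to 0.35 for Maml2, -0.11 to 0.28 for Rbpj and -0.24 to 1.36 for Hes5. AAV-miR ctrl gave -0.12 to 0.32 for Maml2, -0.30 to 0.022 for Rbpj, -0.20 to 0.16 for Notch1, -0.14 to 0.39 for Dll1 and -0.83 to 0.81 for Hes5. A prior count of 0.5 moved no mean log2 CPM by more than its SD. Hes5 and Dll1 had the lowest minimum of reads in a library, with ranges of 0 to 90 and 12 to 171.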
